A study of Mus musculus with 28 samples.

Results

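The SOCS genes encode the suppressors of cytokine signalling, and the 8 genes of the mouse family (Cish and Socs1 to Socs7) were followed through newly made and polyadenylated RNA of macrophages. They were found by gene symbol and are 8 of the 36806 genes in each of 6 expression tables, which together hold 28 libraries. The cells were primary macrophages grown from bone marrow of FVB/Hsd mice and used on day 7 of differentiation. They had been infected with a retrovirus and selected with puromycin. Every set compared a targeting hairpin with a control vector at the same treatment. Cells were untreated or given 10 ng/ml of lipopolysaccharide (LPS), the bacterial ligand of Toll-like receptor 4. Hairpin sh1137 against Wdr82, a subunit shared by Set1 methyltransferase complexes and a phosphatase complex that contains PNUTS, was compared with the empty vector LMP in unstranded RNA labelled with 4-thiouridine (4sU) from untreated cells and after 45 min, 2 h and 4 h of LPS. The same vectors were compared in stranded 4sU RNA (untreated and 1 h of LPS) and in polyA RNA (untreated and 4 h of LPS). A further set compared sh1137 with a scrambled hairpin at 45 min of LPS, with no untreated cells, with or without DRB, a drug that blocks elongation by RNA polymerase II. Hairpins against Set1a together with Set1b, and against Pnuts, were each compared with a scrambled hairpin in stranded 4sU RNA, without LPS and with 45 min of it. The 4sU was given for the last 45 min of culture, so that this RNA is enriched for new transcripts. All cells, controls included, carried a retroviral vector. Wdr82 was targeted with 1 hairpin, and in the sets with an empty vector the loss of Wdr82 and the carrying of a hairpin cannot be told apart. The sources used here do not give the number or age of the animals, and each condition had 1 library per set.

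SOCS proteins carry a central SH2 domain, which binds phosphotyrosine, and a SOCS box near the C terminus, which recruits elongins B and C and the scaffold cullin 5 to form a ubiquitin ligase. CIS (from Cish), SOCS1, SOCS2 and SOCS3 are classical feedback inhibitors: cytokines activate JAK kinases, these phosphorylate STAT factors, and STAT factors switch on the SOCS genes. SOCS1 restrains interferon signalling and SOCS3 restrains signalling through gp130, the shared receptor chain of the interleukin 6 family. SOCS2 is best known as an inhibitor of growth hormone signalling, SOCS4 and SOCS5 have been tied to the EGF receptor, SOCS6 to receptor tyrosine kinases such as KIT, and SOCS7 to adaptors and insulin receptor substrates.

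The upstream sequence is shown for the 4 members that RefSeq's promoter table holds (build GRCm38.p6, the 250 bases before and the 50 bases from the annotated start). In the unstranded set Cish and Socs3 were called higher from 45 min of LPS, Socs1 from 2 h, and Socs4 at no time. Whether the sequences bear on these times was not tested. Capitals mark matches to TTCNNNGAA, the core letters of STAT sites, and to the core letters of interferon regulatory factor sites (GAAA and a further GAAA with 2 bases of any kind between them), searched on both strands. The windows are chr9:107296409-107296708 on the plus strand for Cish, chr16:10785487-10785786 on the minus strand for Socs1, chr11:117969317-117969616 on the minus strand for Socs3 and chr14:47276670-47276969 on the plus strand for Socs4.
Cish: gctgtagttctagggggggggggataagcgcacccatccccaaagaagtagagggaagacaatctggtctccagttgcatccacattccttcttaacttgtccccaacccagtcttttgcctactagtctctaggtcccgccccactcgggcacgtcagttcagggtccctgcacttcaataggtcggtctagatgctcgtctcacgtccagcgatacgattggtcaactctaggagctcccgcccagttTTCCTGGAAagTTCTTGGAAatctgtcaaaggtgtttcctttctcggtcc
Socs1: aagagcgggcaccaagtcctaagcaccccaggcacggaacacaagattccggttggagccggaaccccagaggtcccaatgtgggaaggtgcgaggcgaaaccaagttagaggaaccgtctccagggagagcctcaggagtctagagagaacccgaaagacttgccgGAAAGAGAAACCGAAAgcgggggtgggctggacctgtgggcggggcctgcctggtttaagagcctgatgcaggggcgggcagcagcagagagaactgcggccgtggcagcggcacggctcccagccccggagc
Socs3: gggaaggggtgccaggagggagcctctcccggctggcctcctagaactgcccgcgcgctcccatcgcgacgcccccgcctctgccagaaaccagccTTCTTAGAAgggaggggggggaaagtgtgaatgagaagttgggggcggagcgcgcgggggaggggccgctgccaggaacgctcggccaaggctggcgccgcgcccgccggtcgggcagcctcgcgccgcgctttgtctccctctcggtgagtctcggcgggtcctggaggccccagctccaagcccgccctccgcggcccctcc
Socs4: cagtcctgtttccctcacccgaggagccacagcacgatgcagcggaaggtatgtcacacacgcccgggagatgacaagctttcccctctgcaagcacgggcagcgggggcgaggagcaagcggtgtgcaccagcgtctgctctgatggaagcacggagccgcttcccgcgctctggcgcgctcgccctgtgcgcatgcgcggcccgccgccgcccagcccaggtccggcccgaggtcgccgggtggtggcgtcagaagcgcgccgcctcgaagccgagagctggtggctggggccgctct

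Counted from 1 at the annotated start, the Cish window held TTCCTGGAA at position 1 and TTCTTGGAA at position 12, both within the transcribed part. At least 1 match to TTCNNNGAA was present in 8.30% of the 32851 promoters of the same length in the table, and 2 or more in 0.457%. Socs3 held 1 such match, TTCTTAGAA, at position -154. Socs1 held no match to TTCNNNGAA but had overlapping matches to the interferon regulatory factor letters, namely GAAAGAGAAA at -83 and GAAACCGAAA at -77. That motif was found in 3.44% of the promoters, and 2 or more matches in 0.225%. The Socs4 window held neither of these motifs. Other motifs were searched too and are not marked in capitals. Among them, the core letters of sites for the factor NF-kB matched in every window shown, Socs4 included (at -29). Such a match was present in 50.8% of the promoters, so it does not set these windows apart. These matches describe letters, and binding was not measured.

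In the mm9 loci of the tables, the members differ widely in length. The 1.73 kb Socs1 locus (ENSMUSG00000038037) lies on chromosome 16 from 10783900 to 10785629, and the 3.97 kb Socs3 locus (ENSMUSG00000053113) on chromosome 11 from 117827392 to 117831361. Cish (ENSMUSG00000032578) spans 10.4 kb of chromosome 9 from 107194765 to 107205115, a locus that also holds Gm17040 and Gm17041, and the reads of these genes cannot be fully separated in unstranded libraries. Each of the other members has its locus to itself. Socs4 (ENSMUSG00000048379) lies on chromosome 14 from 47896605 to 47915773, Socs5 (ENSMUSG00000037104) on chromosome 17 from 87507018 to 87536923, and Socs2 (ENSMUSG00000020027) on chromosome 10 from 94847995 to 94879814. Socs7 (ENSMUSG00000038485) lies on chromosome 11 from 97223864 to 97259856. Socs6 (ENSMUSG00000056153), on chromosome 18 from 88834615 to 89096873, is the longest at 262 kb.

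The values are FPKM, which count fragments relative to transcript length and to library size, so levels of different genes can be set side by side within a library. Between 11466 and 13544 genes reached 1 FPKM per library. Read counts were not used here; the steps between values of low genes put the depths of a set's libraries within 1.57-fold of each other in the Set1a+Set1b set and within 3.36-fold in the polyA set. Wdr82 was lower with sh1137 in 10 of 10 pairs of libraries (log2 ratio -2.23 to -0.72). Its ratios were -1.92 and -2.23 in polyA RNA and -1.13 to -0.96 in unstranded 4sU RNA. Ppp1r10, the gene for PNUTS, was higher in both pairs labelled Pnuts sh (0.68 and 0.70), against the label. It was also higher in each sh1137 pair (0.72 to 1.60). Setd1a (-0.40 and -0.11) and Setd1b (-0.58 and 0.06) were not 2-fold lower in the Set1a+Set1b pairs. The Pnuts and Set1a+Set1b sets hold 4sU RNA only, so polyA RNA of their targets was not measured. All 9 macrophage markers in the tables had a mean of at least 1 FPKM, with sums of 1835 to 12227 FPKM per library. Sums of 8 neutrophil markers were 3.80 to 61.2 FPKM in control and 4.63 to 85.0 in targeting hairpin libraries, with Ly6g and Elane under 1 in all libraries. Sums of 8 lymphocyte markers were 2.12 to 115 and 3.00 to 39.0 FPKM, with Cd3e, Cd3g, Ms4a1 and Ncr1 under 1 in all libraries. The markers of dendritic cells, mast cells, erythroid cells and stroma summed to at most 11.5 FPKM each. Their part in the results was not tested, and in bulk RNA fewer cells of a type and less RNA per cell cannot be told apart.

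In untreated macrophages the members spanned a wide range of levels, with Socs4 and Socs6 at the top and Cish and Socs2 near 0. In new RNA of the 4 untreated control libraries the FPKM of Socs4 had a median of 30.7 (26.6 to 46.6) and that of Socs6 21.6 (18.3 to 36.0), and these ranges overlapped. Socs7 followed with 8.48 (6.32 to 9.49), Socs5 with 6.36 (5.21 to 9.51) and Socs3 with 5.77 (3.11 to 24.6), 3 ranges that overlapped one another and lay below Socs6 except for the highest Socs3 library. Socs1 was at 2.96 (1.76 to 4.01), within the reach of Socs3 alone among the genes above it. Cish was at 0.214 (0.0362 to 0.607) and Socs2 at 0.0861 (0.0525 to 0.194), overlapping each other and below every other member. These medians run across tables that were normalized separately, and their ranges show the spread between sets. Socs2 reached 1 FPKM in 1 of the 28 libraries, at 1.31, Cish in 16 and Socs1 in 22, while Socs3, Socs4, Socs5, Socs6 and Socs7 did so in all 28.

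**Figure D1:**
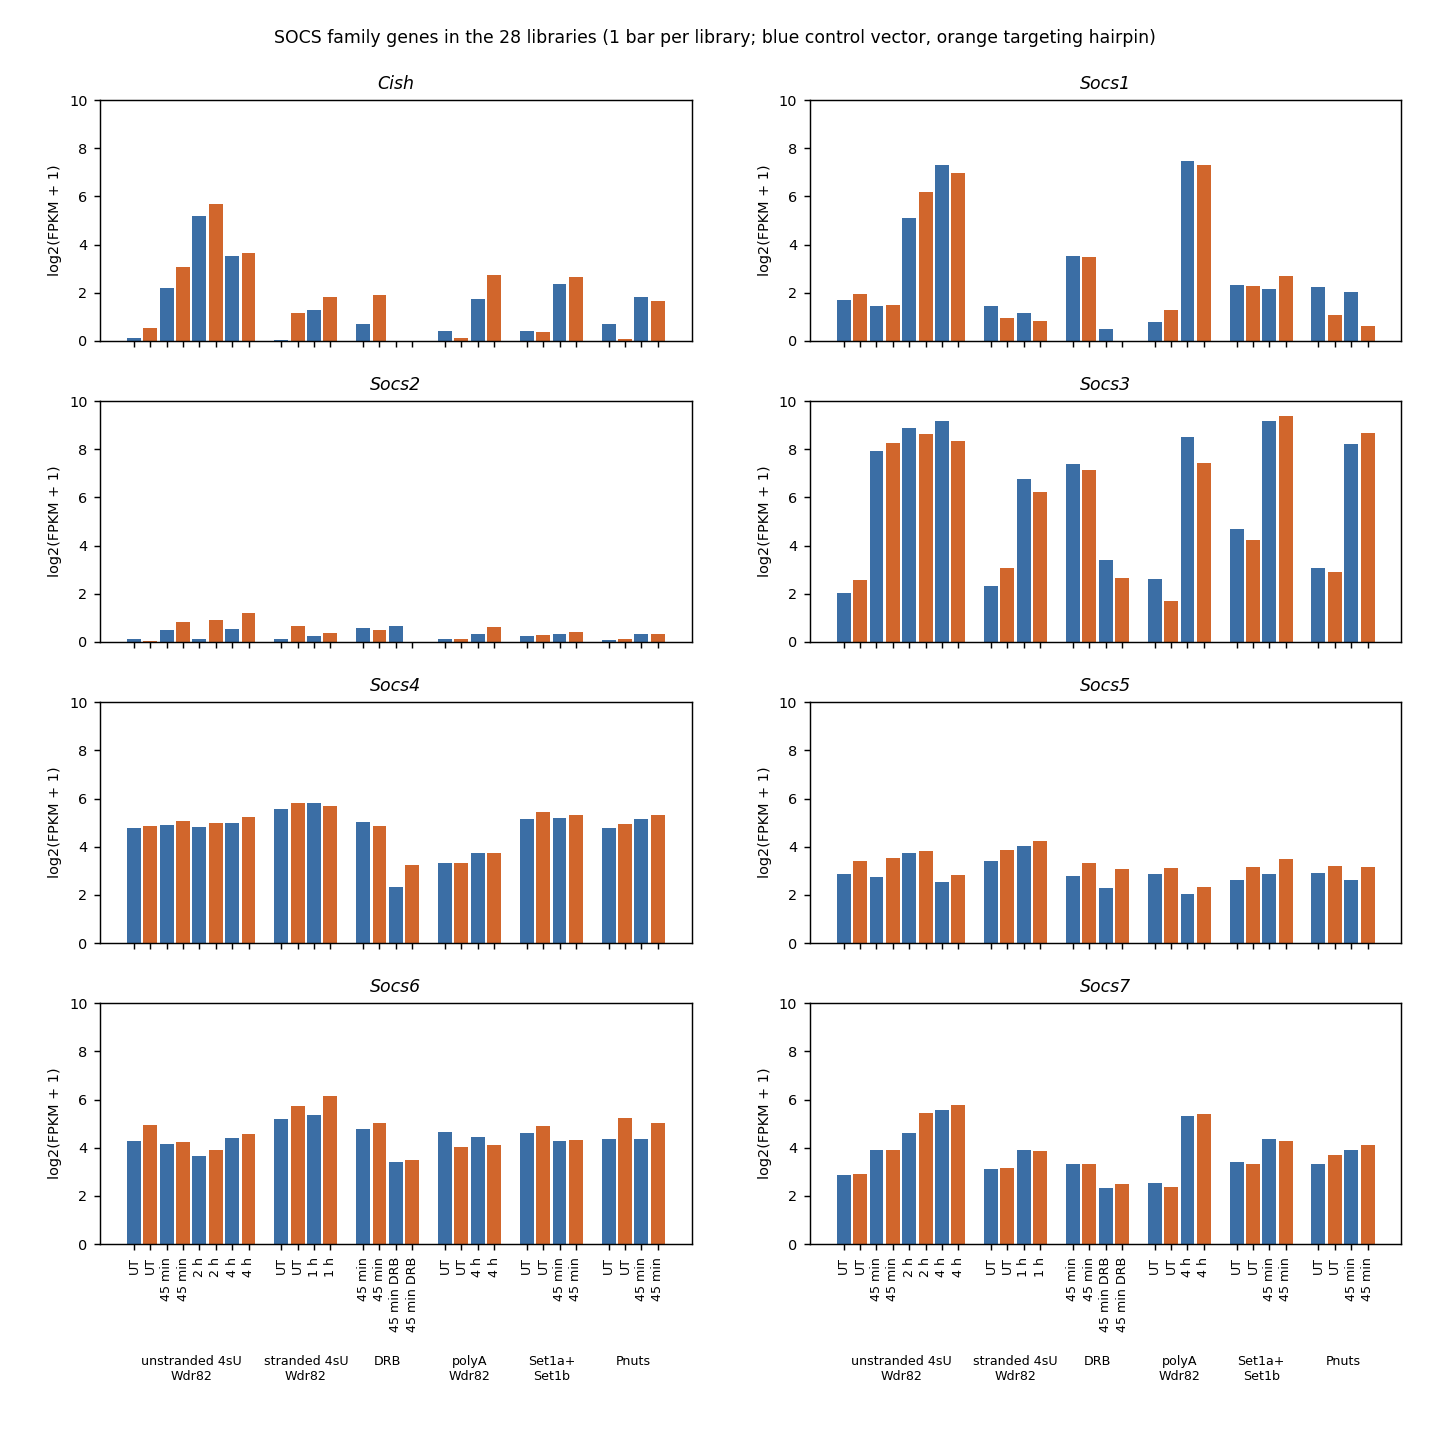
Levels of the 8 members as log2(FPKM + 1), 1 bar per library, with control vectors in blue and targeting hairpins in orange, grouped by set and ordered by LPS time (UT, untreated). Socs3 is high in each LPS library without DRB, and Socs1 is high at 2 h and 4 h.

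The first comparison asked how LPS changed the family. Socs3 rose strongly within 45 min of LPS, Cish and Socs7 rose less at that time, and Socs1 was higher from 2 h on, while Socs4, Socs5 and Socs6 were not 2-fold higher at any time. Ratios are log2 with 1 FPKM added to each value, a gene entered a comparison when it had at least 1 FPKM in either library, and it was called at 2-fold or more. Over 14 LPS comparisons 98 member values entered, of which 42 were at least 2-fold higher and 1 was lower. Over the values of all genes in the same comparisons, 10.4% were called higher and 5.63% lower. In the unstranded control cells 3 of 7 members were called higher at 45 min (5.53% of all genes), 4 of 7 at 2 h (11.2%) and 4 of 7 at 4 h (19.9%). With sh1137 the counts were 3 of 7 (8.2%), 4 of 7 (12.8%) and 5 of 8 (20.7%). These 3 times share an untreated library per vector. The counts include Socs2 at 4 h with sh1137 (0.0393 to 1.31 FPKM, bounds overlapping) and Cish, which was at 0.0938 and 0.432 FPKM in the untreated libraries. Both passed the filter only through their LPS libraries, which favours a higher call, and such calls are also among the 42 of 98.

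Socs3, the inhibitor of gp130 signalling, had the highest LPS ratios of the family in the 12 comparisons of 4sU RNA. In the unstranded control cells its FPKM went from 3.11 without LPS through 245 (45 min) and 471 (2 h) to 583 (4 h). With sh1137 the values were 4.95, 309, 399.9 and 326.9. In the untreated and 45 min libraries of the other sets, the Set1a+Set1b controls stood at 24.6 and 578, and the Pnuts controls at 7.49 and 296. Every LPS library without DRB lay above every untreated library, 73.7 being the lowest of the former and 24.6 the highest of the latter. This runs across 4sU and polyA RNA and across tables normalized separately. How many other genes separate in this way was not counted. The log2 ratio was above 1 in 14 of 14 comparisons (3.13 to 7.15), and 8 of them had deposited confidence bounds that did not overlap. The bounds of the unstranded set were wide (0.337 to 1586 at 4 h in the control) and overlapped. In the 7 control comparisons Socs3 was at least 2-fold higher in each, as were 125 of 11014 genes (1.13%). Its ratio was the 38th highest of 13517 genes at 45 min, the 31st of 13671 at 2 h and the 60th of 13951 at 4 h in the unstranded control.

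Over the 3 control pairs that share the 45 min time (the unstranded, Set1a+Set1b and Pnuts tables), limma fitted to 14263 genes gave Socs3 a mean log2 ratio of 5.18 (SE 0.30, adjusted p = 0.0078, higher in 3 of 3 pairs). Cish rose by 1.72 (SE 0.23, adjusted p = 0.0291 by limma, 3 of 3 pairs) and Socs7 by 0.87 (SE 0.13, adjusted p = 0.0337 by limma, 3 of 3 pairs). In this fit 978 genes (6.86%) were higher and 743 (5.21%) lower, and 3 of 7 members were higher. The remaining members had mean ratios of -0.20 (Socs1), 0.17 (Socs4), -0.06 (Socs5) and -0.16 (Socs6), with limma adjusted p of 0.167, 0.346, 0.772 and 0.377. The calls of Cish and Socs7 were lost with a pseudocount of 0.1 FPKM (adjusted p = 0.0646 and 0.0557 by limma) and without any 1 pair (0.0627 to 0.136 for Cish and 0.0880 to 0.153 for Socs7). That of Socs3 was lost without the Pnuts pair (adjusted p = 0.0794), where limma called 0 genes of all.

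**Figure D2:**
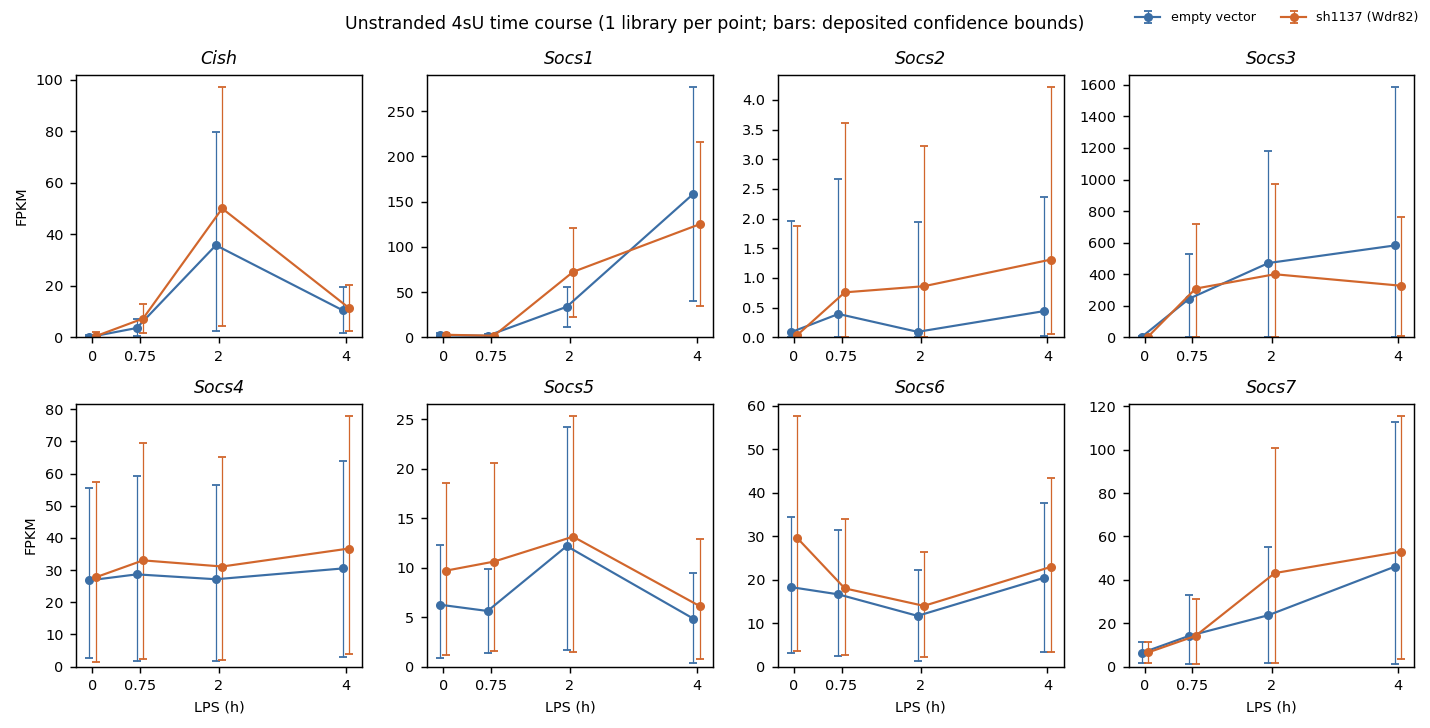
FPKM of each member in unstranded 4sU RNA against hours of LPS, with 1 library per point, the empty vector in blue, sh1137 in orange and the deposited confidence bounds as bars. Cish peaks at 2 h in both vectors, Socs1 and Socs7 are highest at 4 h in both, and the Socs3 bounds are wide at 45 min and later.

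Cish, which encodes the founding member of the family, was higher after LPS, most of all at 2 h. In the unstranded set its FPKM was 0.0938, 3.63, 35.7 and 10.5 in the control at 0, 45 min, 2 h and 4 h, and 0.432, 7.29, 50.0 and 11.4 with sh1137. The 2 h library was the highest of each series, though its bounds overlapped those at 4 h. At 45 min the Set1a+Set1b libraries went from 0.333 to 4.17 with the scrambled and from 0.303 to 5.24 with the targeting hairpins. The Pnuts set gave 0.607 and 2.50 in the control and 0.0690 and 2.20 in the libraries labelled Pnuts sh. Cish was called higher in 13 of 14 LPS comparisons, the exception being sh1137 at 1 h (1.24 and 2.50 FPKM, log2 ratio 0.64), and 7 of the calls had bounds apart. Because its untreated level is low, Cish entered most of these comparisons through the LPS library alone, which favours a higher call. The ratios also depend on the pseudocount: at 2 h in the control the log2 ratio was 5.07 with 1 FPKM and 7.53 with 0.1 FPKM.

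Socs1, the inhibitor of interferon signalling, was not higher at 45 min or 1 h and was strongly higher later. The unstranded control libraries held 2.27, 1.77, 33.8 and 159 FPKM at 0, 45 min, 2 h and 4 h, and the sh1137 libraries 2.83, 1.78, 72.4 and 125. In polyA RNA the level went from 0.725 to 177 in the control and from 1.43 to 156 with sh1137. All 6 comparisons at 2 h or 4 h were called, with log2 ratios of 3.41 to 6.69 and bounds apart in each. The 7 comparisons at 45 min or 1 h that entered gave -0.46 to 0.44, with 6 of 7 below 0. The unstranded set holds early and late times, and there the Socs1 libraries at 45 min (1.77 and 1.78 FPKM) lay far below those at 2 h and 4 h (33.8 to 159 FPKM), whereas Socs3 was high at every LPS time.

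Socs7, which binds signalling adaptors, had a higher level at each later time of the unstranded set, from 45 min on. Its unstranded values were 6.32, 14.2, 23.7 and 46.1 FPKM in the control and 6.49, 14.2, 43.1 and 53.1 with sh1137. The polyA level at 4 h was 39.4 against 4.80 untreated in the control, and 41.7 against 4.23 with sh1137. All 14 LPS ratios were above 0 (0.41 to 3.03) and 8 were at least 2-fold, none with bounds apart. At 4 h in unstranded, and at 4 h in polyA control cells, the median of all genes was itself above 0 (0.19 and 0.17), and relative to it the Socs7 ratios were 2.50 and 2.63.

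**Figure D3:**
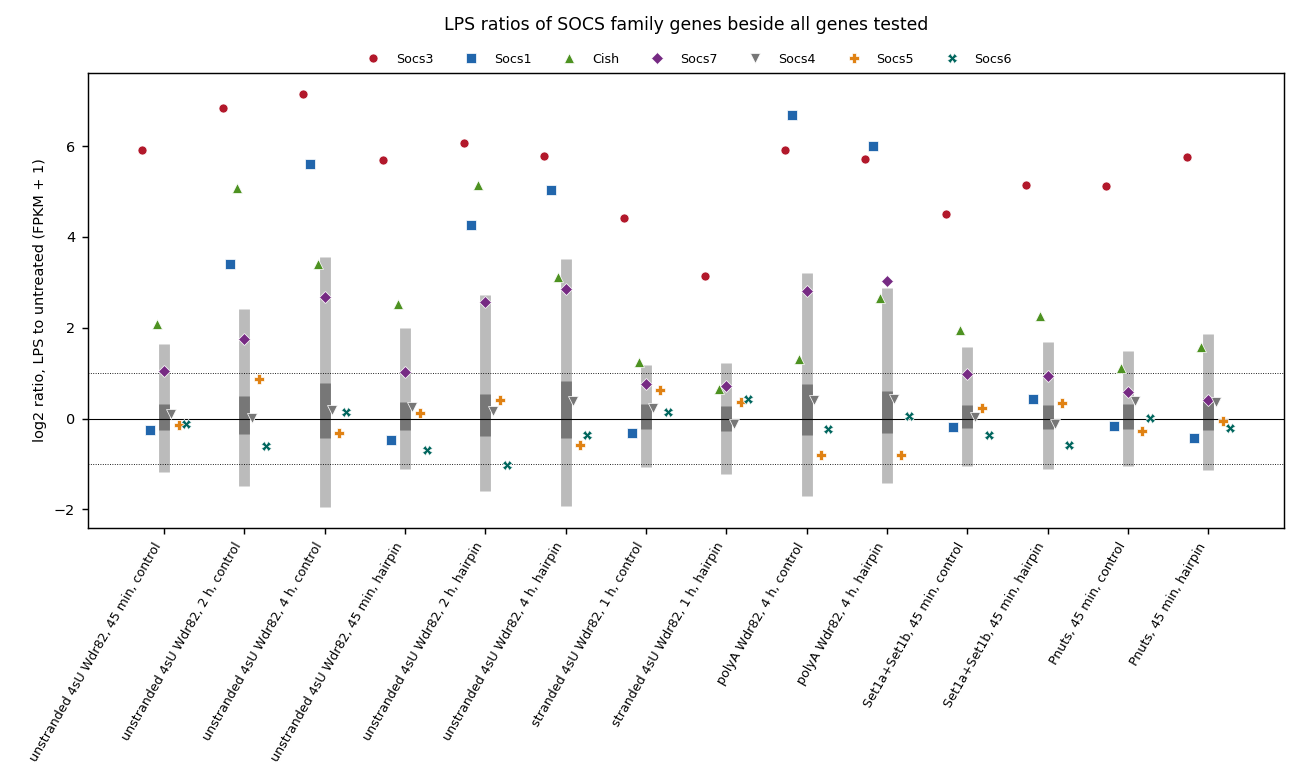
Log2 ratio of LPS to untreated libraries (1 FPKM added) in the 14 comparisons for the 7 members that entered most of them, 1 point each, over grey bars that hold the middle 95% (light) and the middle 50% (dark) of all genes tested, with dotted lines at 2-fold. Socs3 lies above the light bar in each comparison, Socs1 does so at 2 h and 4 h, and Socs4, Socs5 and Socs6 lie between the dotted lines except for Socs6 at 2 h with sh1137.

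Socs4, Socs5 and Socs6 were not called higher in any LPS comparison. Socs4 in the unstranded control was 26.8, 28.7, 27.1 and 30.5 FPKM, and its 14 LPS ratios ran from -0.13 to 0.43. Socs5 was 6.24, 5.61, 12.2 and 4.84 FPKM in the same libraries, and its ratios to untreated cells ran from -0.81 to 0.86, with 7 above and 7 below 0. Both polyA values at 4 h were on the low side (6.22 to 3.11 FPKM in the control and 7.74 to 4.03 with sh1137), short of 2-fold with the pseudocount. Socs6 held 18.3, 16.6, 11.7 and 20.4 FPKM in the control. Its 1 call was lower, at 2 h with sh1137 (29.6 to 14.0 FPKM, log2 ratio -1.03, bounds overlapping), where 7.98% of genes were called lower. Socs2 entered 1 LPS comparison, 4 h with sh1137, at 0.0393 and 1.31 FPKM with overlapping bounds.

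Other genes of the pathway were read from 8 lists with 108 entries. The ligand genes were the group most often called after LPS in the unstranded control, with 10 of 12 entered genes higher at 45 min, 11 of 12 at 2 h and 14 of 14 at 4 h, and 1 lower at 2 h. These shares are partly set by the filter. A gene near 0 FPKM without LPS enters only through its LPS library, and a higher call is then nearly fixed. Of the 16 ligands listed, 4 entered the comparison of the vectors in untreated cells of this set, and Il12b and Csf2 were at 0 FPKM in the untreated control. Of all genes, 5.53, 11.2 and 19.9% were called higher and 3.99, 6.67 and 10.8% lower at these times. Il6, whose receptor signals through gp130, was at 0.0931, 1.75, 129.9 and 1165 FPKM at the 4 times. Il27, a further ligand of that receptor chain, was at 1.10, 2.18, 76.3 and 329 FPKM. Of the JAK kinase genes 0, 2 and 2 of 4 were called higher, and of the STAT genes 0, 3 and 4 of 7. Jak2 was at 6.03, 8.15, 75.8 and 194.5 FPKM, and Stat3, the factor downstream of gp130, at 23.2, 38.3, 32.0 and 136 FPKM. The list of STAT target genes had 9, 9 and 14 of 18 genes higher, with 0, 2 and 1 lower. Mx1, an interferon-induced gene, was at 11.7, 9.55, 203 and 2647 FPKM, so that like Socs1 it was not higher at 45 min. Others of the same list differed from Mx1 at that time. Cxcl10 went from 2.95 to 207 FPKM, Gbp2 from 1.68 to 5.70 and Isg15 from 13.6 to 21.0 by 45 min.

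The genes for the proteins that SOCS proteins act on or with are set here beside the 5.53, 11.2 and 19.9% of all genes called higher at the 3 times. The shares called lower were 3.99, 6.67 and 10.8%. Receptor chains were higher in 3 of 17, 4 of 17 and 6 of 18 cases at the 3 times, with 0, 2 and 2 lower. Il10ra, a chain of the interleukin 10 receptor, was at 27.4, 121, 98.1 and 199.6 FPKM. Of the elongin, cullin and ligase partners 1, 1 and 2 of 8 were higher, and Tceb2, which encodes elongin B, was at 30.6, 31.2, 45.5 and 49.8 FPKM. Of the other JAK and STAT inhibitors 0, 2 and 5 of 14 were higher and 1, 0 and 3 lower. Usp18, an inhibitor of the interferon receptor, was at 12.4, 10.9, 55.9 and 525 FPKM. Of the substrates and adaptors bound by SOCS proteins 2, 1 and 2 of 11 were higher and 0, 0 and 1 lower, and Irs2, which encodes an insulin receptor substrate, was at 7.47, 45.3, 9.04 and 3.22 FPKM. Over the 3 control pairs at 45 min, limma called 9 of 13 ligands, 9 of 18 STAT targets, 4 of 18 receptor chains, 4 of 12 substrates, 1 of 7 STAT genes, 1 of 8 partners, 1 of 14 other inhibitors and 0 of 4 JAK genes higher, beside 6.86% of all genes. It called 1 gene of the other inhibitors lower, beside 5.21% of all genes. Genes that passed the filter through LPS libraries alone, such as ligands near 0 FPKM in untreated cells, are included in these counts.

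The next comparison asked how DRB changed the FPKM of new RNA at 45 min of LPS. In FPKM, which are relative to library size, Socs1 was nearly gone with DRB. Socs3 fell to a small part of its level without the drug. At 9.69 and 5.22 FPKM it still lay within the range of Socs4 to Socs7 in the DRB libraries (3.86 to 10.3 FPKM). Socs5 was not 2-fold lower, and Socs7 lay near the 2-fold line. The percentages left are ratios of FPKM and give no absolute amount of RNA. Among all genes, 16.4% in the control and 13.4% with sh1137 were at least 2-fold higher with DRB. Socs3 was at 165 FPKM without and 9.69 with DRB in the control (5.86% left), and at 141 and 5.22 with sh1137 (3.71%). Socs1 was at 10.5 and 0.412 FPKM in the control (3.94%), and at 10.3 and listed at 0 with sh1137. Cish was listed at 0 in both DRB libraries, against 0.643 and 2.80 FPKM without the drug. The bounds with and without DRB were apart for Socs1 and Socs3 in both vectors and for Cish with sh1137. Socs4 kept 12.9% in the control and 29.8% with sh1137, and Socs6 kept 36.6% and 32.6%. Socs7 kept 45.2% and 51.0%, and Socs5 kept 65.9% and 82.0%. Of all genes 15.7% were at least 2-fold lower in the control and 15.4% with sh1137, beside 4 of 6 and 5 of 7 members. The median gene was higher with DRB (log2 ratio 0.16 in the control and 0.18 with sh1137), and relative to it Socs7 was also 2-fold lower in both vectors (-1.14 and -1.02). The members that kept most (Socs5, Socs7 and Socs6) have loci of 29.9, 36.0 and 262 kb, and those that kept least have the shortest loci, an order over few genes that was not tested.

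**Figure D4:**
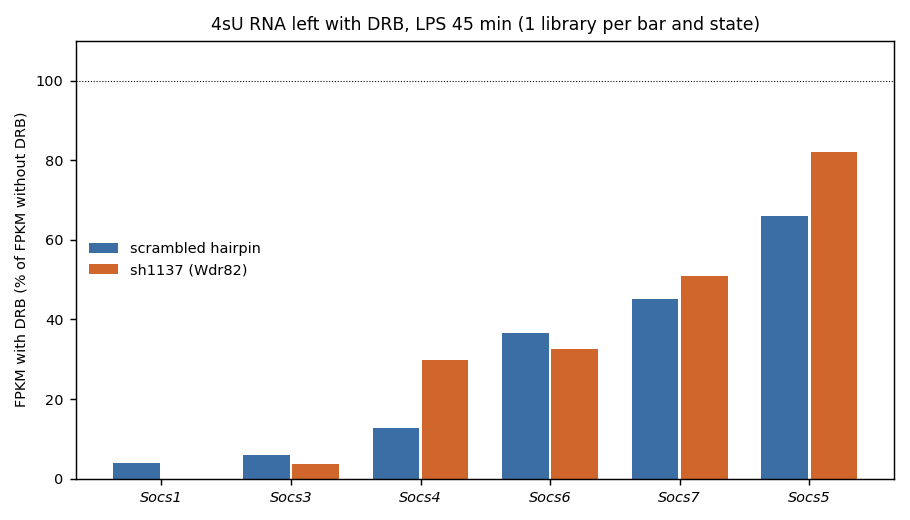
FPKM with DRB as a percentage of FPKM without DRB at 45 min of LPS, for the 6 members with at least 1 FPKM in both vectors without DRB, with the scrambled hairpin in blue and sh1137 in orange and 1 library for each state. Less than 6% of the FPKM is left for Socs1 and Socs3 (Socs1 is listed at 0 with sh1137), and 65.9 and 82.0% for Socs5.

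The last comparison asked what the targeting hairpins changed, in 14 pairs that include those labelled Pnuts sh. No member passed the test over the 4 unstranded sh1137 pairs, 4 of 93 values in single pairs were 2-fold higher and 3 lower, and the steadiest difference was a small one in Socs5. Over the values of all genes 5% were called higher and 2.91% lower in these 14 comparisons, so that the members' shares were near the background. With the times as repeats, limma over 15546 genes called 833 genes (5.36%) higher and 721 (4.64%) lower with sh1137, and 0 of 8 members, of which 3 had an unadjusted p under 0.05. The mean log2 ratio was 0.45 for Cish (SE 0.14, adjusted p = 0.103 by limma, above 0 in 4 of 4 pairs). It was 0.44 for Socs5 (SE 0.14, adjusted p = 0.112 by limma, 4 of 4 pairs) and 0.43 for Socs2 (SE 0.16, adjusted p = 0.151 by limma, 3 of 4 pairs). Socs6, Socs7, Socs1, Socs4 and Socs3 gave 0.29, 0.27, 0.24, 0.17 and -0.05, with limma adjusted p of 0.183, 0.332, 0.528, 0.225 and 0.907. When the 3 further 4sU pairs without DRB of the stranded and DRB tables were added, Cish (0.66, adjusted p = 0.0104 by limma), Socs5 (0.43, 0.0120) and Socs6 (0.39, 0.0238) passed. That fit called 14.7% of all genes higher and 12.3% lower, so 3 of 8 members stand beside a wide background.

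Socs5, a member tied to EGF receptor turnover, was above its control in 14 of 14 pairs of a targeting hairpin and a control, with log2 ratios of 0.10 to 0.81 and a median of 0.50. None reached 2-fold, and 204 of 10230 genes (1.99%) were above 0 in all 14. In the unstranded set the control and sh1137 values were 6.24 and 9.69, 5.61 and 10.6, 12.2 and 13.1, and 4.84 and 6.10 FPKM at the 4 times. In the Set1a+Set1b set they were 5.21 and 7.84 untreated and 6.25 and 10.3 at 45 min. The Pnuts set gave 6.47 and 8.28, then 5.22 and 7.88. Control and targeting hairpin libraries of different sets overlapped, so the difference shows only within pairs.

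Socs6, the partner of receptor tyrosine kinases, was above its control in 12 of 12 4sU pairs (0.06 to 0.89), as were 5.62% of 10827 genes. The pairs labelled Pnuts sh gave 19.5 and 37.1 FPKM untreated and 19.8 and 32.0 at 45 min, and the stranded sh1137 pairs 36.0 and 52.1, then 40.1 and 71.0 at 1 h. In polyA RNA it was below its control at both times (24.5 and 15.4, then 20.9 and 16.1 FPKM, log2 ratios -0.63 and -0.36). Above 0 in the 8 4sU sh1137 pairs and below 0 in both polyA pairs were 317 of 10305 genes (3.08%). All bounds of these Socs6 pairs overlapped.

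**Figure D5:**
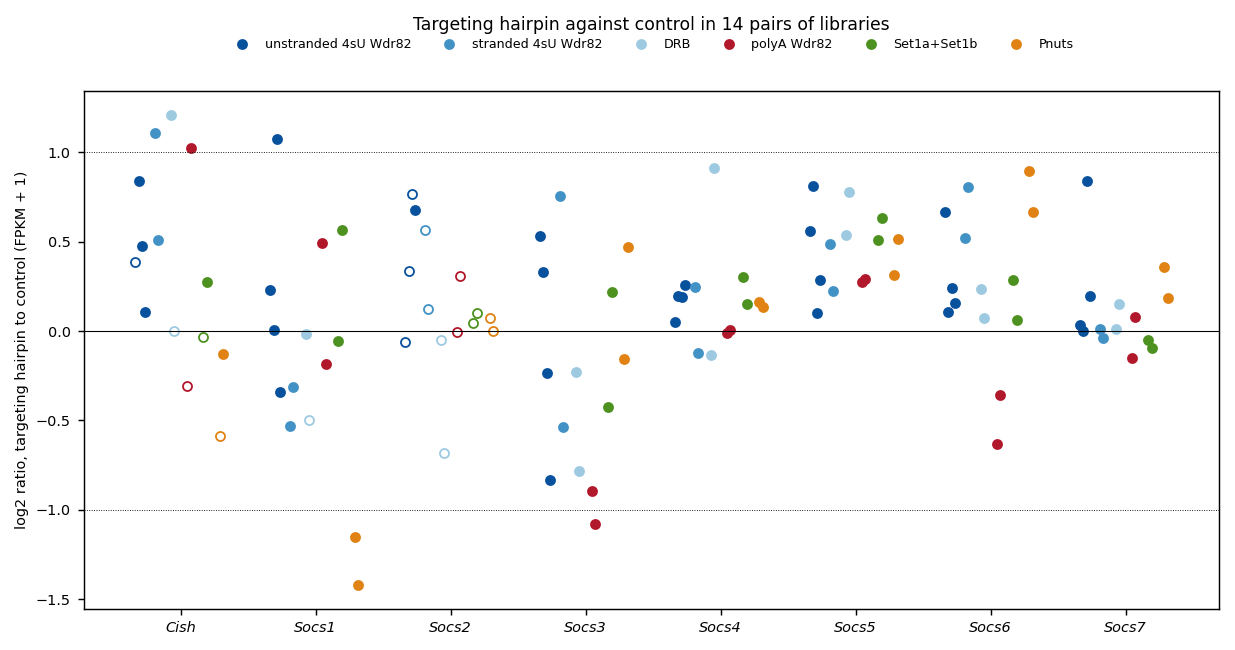
Log2 ratio of targeting hairpin to control (1 FPKM added) for each member in the 14 pairs of libraries, coloured by set, with open points where neither library reached 1 FPKM and dotted lines at 2-fold. The Socs5 points all lie above 0, Socs6 lies above 0 in 4sU RNA and below it in polyA RNA, and Socs1 lies below -1 in both pairs labelled Pnuts sh.

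Of the 7 values past 2-fold, 3 were Cish, 3 Socs1 and 1 Socs3. In the libraries labelled Pnuts sh Socs1 was lower, at 3.66 and 1.09 FPKM untreated (log2 ratio -1.16) and 3.14 and 0.544 at 45 min (-1.42). The bounds were apart at 45 min (1.21 to 5.04 against 0 to 1.01) and overlapped in untreated cells, and 2.47% and 3.84% of all genes were called lower there. In the unstranded set at 2 h Socs1 was higher with sh1137 (33.8 and 72.4 FPKM, 1.08), where 6.37% of genes were called higher, and at 4 h it was not (159 and 125 FPKM). Cish was called higher with sh1137 in untreated stranded RNA (0.0362 and 1.24 FPKM, 1.11, beside 6.79% of genes), in the DRB set without the drug (0.643 and 2.80, 1.21, beside 3.71%) and in polyA RNA at 4 h (2.32 and 5.75, 1.02, beside 3.55%). With a filter of 5 FPKM 3 of the 7 calls were left.

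Between vectors Socs3 did not differ in the same direction at all times of the sh1137 sets. In unstranded RNA its log2 ratio to the control was 0.53 in untreated cells and 0.33, -0.24 and -0.83 at 45 min, 2 h and 4 h. In stranded RNA it was 0.75 untreated (4.05 and 7.52 FPKM) and -0.54 at 1 h (107.5 and 73.7 FPKM). PolyA RNA gave -0.90 untreated (5.10 and 2.28 FPKM) and -1.08 at 4 h (366 and 173 FPKM), the latter a 2-fold call that fell to -0.98 relative to the median gene, beside 2.81% of genes called lower. The LPS ratio was smaller with sh1137 than in the control by 0.20, 0.77 and 1.37 in unstranded RNA, 1.29 in stranded RNA and 0.18 in polyA RNA. With the Set1a+Set1b hairpins it was larger than in their control by 0.64, and in the libraries labelled Pnuts sh by 0.63. With 1 library per condition these differences were not tested, and all bounds between vectors overlapped.

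Across the 28 libraries, after centring within each table, Socs3 was most like Pde4b (Pearson r 0.995), Zc3h12c (0.986) and Slc2a6 (0.986) among 8036 genes. Socs1 was most like Tor1aip2 (0.964), Mx2 (0.962) and Mier3 (0.958), and Cish was most like Prdm1 (0.926), Cxcl3 (0.917) and St3gal1 (0.906). Socs7 was closest to Sav1 (0.967), Snx10 (0.964) and Gbp3 (0.961), and Socs4 to Zbtb43 (0.972), Purb (0.965) and Rbbp6 (0.939). For Socs5 (C77080 at 0.859, Rora at 0.783, Gabarapl1 at 0.779) and Socs6 (Zfp943 at 0.859, Zfp426 at 0.853, Ankra2 at 0.851) the values were lower. Within the family the highest values were those of Socs1 with Socs7 (0.883), Cish with Socs3 (0.832) and Socs3 with Socs7 (0.831). The libraries share vectors and tables, and these correlations describe them without a test.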

How the data were processed

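RNA-seq of 28 libraries was used, 24 of 4sU RNA and 4 of polyA RNA, in 6 tables with 1 library per condition. The deposited values are FPKM per gene with confidence bounds and a status, which the authors made per table; per the submitters' processing notes, TopHat 1.3.1, Cufflinks 2.1.1, Cuffdiff 2.1.1 and the build mm9 were used. The sources used here give neither the annotation nor the scaling nor the level of the bounds, and the absolute depth is unknown. The LPS times come from the sample titles.

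Ratios were computed within a table as log2((FPKM + 1)/(FPKM + 1)), which understates changes of low genes. A gene entered with at least 1 FPKM in either library and status OK in both, and was called at 2-fold. Where several entries carry a symbol, that with the largest mean FPKM was kept. A single pair has no test. limma 3.58.1 (R 4.3.3) was fitted to the log2 ratios of all genes over 4 sh1137 pairs and over 3 LPS pairs, with Benjamini-Hochberg adjustment at 0.05; the error is the spread between times or tables, not between cultures, of which the labels say nothing. On simulated data limma recovered 32 and 27 of 50 genes raised and lowered by 1 log2 unit over the 4 pairs, and 20 and 21 of 50 over the 3 pairs. Alternatives were another pseudocount, other filters, centring, other pairs and leaving out each pair.

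The members, the 8 pathway lists and the marker lists were chosen with earlier results of these data known. Named pathway genes come from the 4 with the largest LPS ratio per list in the unstranded control, with at least 5 FPKM; those described are examples, and some items are not reported here. The genes most like a member are the 3 with the highest correlation, with a mean of at least 5 FPKM. Of the members, 4 matched the RefSeq promoter table.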

Additional observations from a re-analysis of the deposited data

Results flagged for a closer look

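Socs6 moved in opposite directions in the 2 kinds of RNA with sh1137. Its log2 ratio was above 0 in 8 of 8 4sU pairs (mean 0.35) and below 0 in 2 of 2 polyA pairs (mean -0.50), a difference of 0.847 between the means. The difference was not tested, because the tables were normalized separately and hold 1 library per condition. Of all genes, 10.6% were above 0 in each of the 8 4sU pairs and 43.7% below 0 in both polyA pairs. Both signs together were seen in 3.08% of genes.

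Socs7 was above its control in both pairs labelled Pnuts sh (mean log2 ratio 0.27) and below it in both Set1a+Set1b pairs (mean -0.07), a difference of 0.346. This difference was not tested either, and none of these 4 ratios reached 2-fold. Such signs were common: 41.2% of genes were above 0 in both Pnuts pairs, and 33.9% were below 0 in both Set1a+Set1b pairs.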

How the results depend on the processing

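The 43 LPS calls of members became 36 to 44 and the 9 DRB calls 8 to 11 under the other pseudocount, filters and centring. The 7 calls of targeting hairpin against control became 10 with a pseudocount of 0.1 FPKM, 6 after centring and 3 with at least 5 FPKM. No called ratio changed sign. Of the recomputed member ratios 384 moved by less than the distance to the deposited upper bound and 24 by more, 22 of them with the pseudocount of 0.1 FPKM, which weighs most on Cish and Socs1. Over all genes, the 1554 limma calls of sh1137 ranged from 0 to 88 without 1 pair (0 without the 45 min or the 2 h pair, 17 without the untreated and 88 without the 4 h pair), and came to 4405 with 7 pairs. The 1721 limma calls of LPS at 45 min came to 1057 with a pseudocount of 0.1 FPKM, to 0 to 305 without 1 pair (0 without the Pnuts, 98 without the Set1a+Set1b and 305 without the unstranded pair), and to 5527 with the 6 pairs of both vectors. Fewer pairs leave fewer degrees of freedom. In that last fit, which takes the control and hairpin pairs of the same sets as repeats, Socs6 was lower (-0.33, adjusted p = 0.0484 by limma). With 5527 genes called, this stands beside a wide background. The 3 control pairs alone gave -0.16 for Socs6 (adjusted p = 0.377 by limma). The limma fits take ratios within a time or a table; no further pairing by replicate was possible because the labels give no replicate numbers and each condition has 1 library per table.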

Other observations

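In cells given LPS for 45 min without DRB, the 2 libraries of the DRB set held the highest Socs1 levels, at 10.5 and 10.3 FPKM, while the other 6 libraries of that time held 0.544 to 5.55 FPKM. The control of the same set held the lowest Cish level of that time, 0.643 FPKM, against 2.20 to 7.29 FPKM in the other libraries. Untreated cells of the Set1a+Set1b set held more Socs3 (24.6 and 18.1 FPKM) than the other 8 untreated libraries (2.28 to 7.52 FPKM). These sets were normalized separately, and the differences were not tested.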
